A study of Rattus norvegicus with 8 samples.

Results

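The comparison described here set callus cells of rats given zoledronate and magnesium against callus cells of rats given zoledronate alone, both taken 12 weeks after a femoral fracture. Its members were all cells with at least 5000 unique molecular identifiers (UMIs, the barcodes that mark single captured transcripts) in these 2 libraries. There were 17277 of them, 7999 in the magnesium library and 9278 in the zoledronate library, of 65208 cells of that depth in 8 libraries and 69624 cells in all.

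The animals were Sprague Dawley rats. Per the labels, zoledronate was injected under the skin at 0.3 mg/kg each week for 12 weeks, and a closed fracture of a single femur then followed. The labels call the cells of the first library zoledronate-treated and those of the second zoledronate and Mg treated, so the drug is shared by both sides and magnesium is the labelled difference. The fracture was fixed with an intramedullary nail, of stainless steel or containing magnesium, and the labels do not tie a nail to a group. Nor do they give the dose of magnesium, the age and sex of the rats, or how many rats stand behind a library. Collagenase A released the cells over 4 h, and a further 24 h in a dish preceded sequencing, so cells that do not survive or attach there were not measured. The same design at week 4, with control and CGRP (calcitonin gene-related peptide) libraries at both weeks, gave the other 6 libraries set beside these 2.

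A fracture callus heals by laying down fibrous tissue and cartilage that are later replaced by bone, and mesenchymal cells make most of this matrix. Zoledronate is a nitrogen-containing bisphosphonate. It blocks farnesyl diphosphate synthase in the mevalonate pathway, stops osteoclasts from resorbing bone, and slows the remodelling of a callus. Magnesium ions enter cells through channels such as Trpm7. The series title asks whether magnesium helps femora to heal after the fractures known as atypical.

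The cells of both libraries had the markers of matrix-making fibroblastic cells. All 10 fibroblastic markers reached at least 1 CPM (UMIs of a gene, scaled to a total of 1000000) in both, with a summed level of 57039 CPM in zoledronate and 53352 CPM in magnesium. The defining bone and cartilage markers Sp7 and Col2a1 were not listed in either table, and Bglap (osteocalcin) stood at 0.06 CPM in zoledronate and 0.08 CPM in magnesium. The zoledronate cells had a median of 16083 UMIs and 3105.5 genes, and the magnesium cells 18053 UMIs and 3347 genes. The filter kept 94.7% of the zoledronate barcodes and 97.6% of the magnesium barcodes, and 18 barcode sequences occurred in both libraries. A level of 1 CPM stood for 156 UMIs in zoledronate and 159.7 UMIs in magnesium. With 1 library on each side, higher and lower are statements about these libraries. No test between the treatments could be made, and the intervals given are exact 95% intervals that cover counting error only.

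Most genes were at nearly the same level in the 2 libraries, and a small set differed by a large factor. Of 7142 genes measured in both at a mean of at least 5 CPM, 6277 (87.9%) lay within 1.5-fold. At least 2-fold higher in magnesium were 248 genes (3.47% of those measured), and 141 genes (1.97%) were at least 2-fold lower. At a fold of 1.5, 545 genes (7.63%) were higher and 320 (4.48%) were lower. The ratio used throughout is the log2 of CPM plus 1, magnesium over zoledronate. Its median was 0.07 and its SD across genes 0.50. Among the 2378 genes with a mean of at least 50 CPM, 57 were at least 2-fold higher and 44 at least 2-fold lower.

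**Figure D1:**
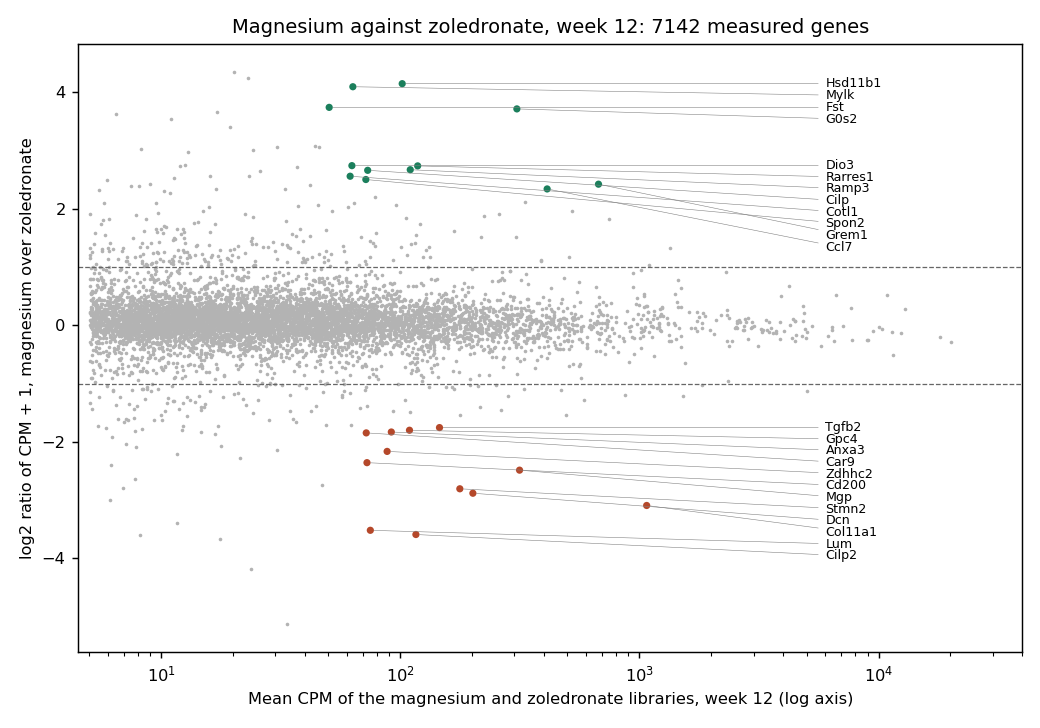
Each point is 1 of 7142 measured genes, with the mean CPM of the 2 libraries on a log axis and the log2 ratio of magnesium over zoledronate at week 12 on the vertical axis; dashed lines mark a fold of 2. The 12 highest (green) and 12 lowest (red) genes with a mean of at least 50 CPM are labelled, from Hsd11b1 at 4.15 to Cilp2 at -3.59.

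The 12 genes highest in magnesium had varied functions, from hormone metabolism to contraction and secreted factors. Hsd11b1, which regenerates active glucocorticoid inside cells, stood at 9.96 CPM (9.48 to 10.5) in zoledronate and 194 CPM (191 to 196) in magnesium, a 19.4-fold difference. Mylk, the kinase that switches on smooth-muscle myosin, stood at 6.10 CPM in zoledronate and 120 CPM in magnesium. For both genes the zoledronate library lay within the range of the other 6 libraries and magnesium lay above it. That range was 6.72 to 88.7 CPM for Hsd11b1 and 3.27 to 64.4 CPM for Mylk, with CGRP at week 12 as the upper end each time.

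Fst (follistatin, which binds and blocks activins) stood at 6.14 CPM in zoledronate and 94.6 CPM in magnesium, against 19.9 to 55.0 CPM in the other 6 libraries. Here both libraries stood outside the others, on opposite sides. G0s2, an inhibitor of the lipase that opens fat droplets, stood at 42.6 CPM in zoledronate and 572 CPM in magnesium, against 4.05 to 187 CPM elsewhere. Grem1, a secreted antagonist of bone morphogenetic proteins, was at 211 CPM and 1137 CPM, against 47.4 to 412 CPM. The other genes among the 12 highest were Dio3, the enzyme that inactivates thyroid hormone (log2 ratio 2.74), Rarres1 (2.74), Ramp3, a partner of the adrenomedullin receptor (2.67), Cilp (2.66), the actin-binding Cotl1 (2.56), the matrix protein Spon2 (2.50) and the chemokine Ccl7 (2.34).

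The genes lowest in magnesium included the matrix genes Cilp2, Lum, Col11a1, Dcn and Mgp, which were 5 of the 12 lowest. Cilp2, a matrix protein of the cartilage intermediate layer family, stood at 215 CPM (213 to 218) in zoledronate and 16.9 CPM (16.3 to 17.6) in magnesium, 12.7-fold lower. Lum (lumican) stood at 139 CPM in zoledronate and 11.2 CPM in magnesium, and Dcn (decorin) at 355 CPM and 47.2 CPM. Both are small proteoglycans that bind collagen and space its fibrils. The other 6 libraries spanned 6.09 to 218 CPM for Lum and 2.28 to 206 CPM for Dcn, with control at week 12 lowest, so the magnesium values of these genes lay within that range. For Dcn and Cilp2 the zoledronate value was the highest of all 8 libraries. For Cilp2 the magnesium value was also the lowest of the 8, as the other 6 spanned 23.6 to 95.2 CPM.

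Col11a1, a collagen of cartilage and of young fibrils, stood at 1920.3 CPM in zoledronate and 224 CPM in magnesium. In the other 6 libraries it ran from 786 to 2488 CPM, so magnesium at week 12 was the library that stood apart. The remaining genes among the 12 lowest were Stmn2, a regulator of microtubules (-2.81), Mgp, an inhibitor of calcification (-2.49), the immune ligand Cd200 (-2.36), Zdhhc2 (-2.17), the carbonic anhydrase Car9 (-1.85), Anxa3 (-1.83), the glypican Gpc4 (-1.80) and Tgfb2 (-1.76). Among genes with a mean of 5 to 50 CPM, the highest ratios belonged to RT1-A1 (4.36), the small heat shock gene Hspb7 (4.26), Sfrp1 (3.67) and the dipeptidase Dpep1 (3.62). The lowest belonged to RT1-A2 (-5.14), Timp3 (-4.18), Wnt16 (-3.67) and the dynein chain gene Dync1i1 (-3.60).

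**Figure D2:**
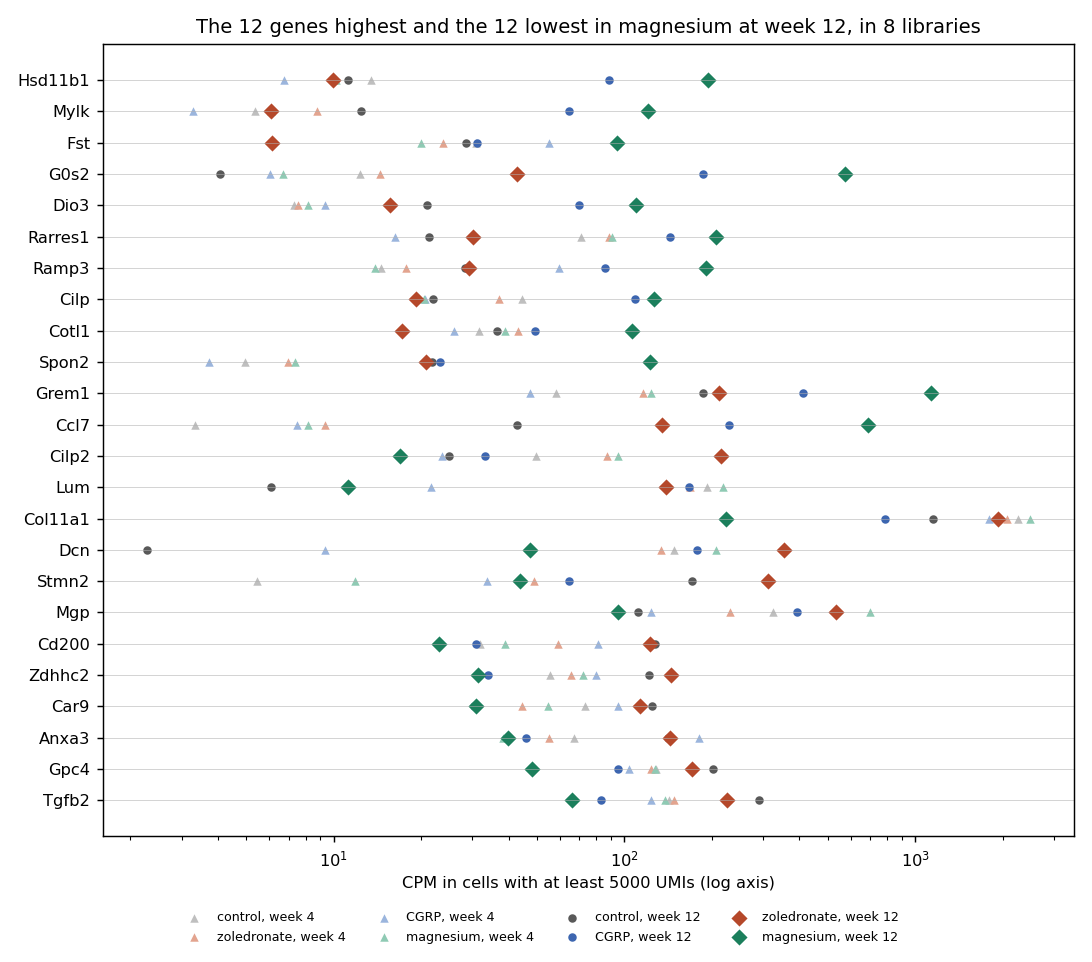
CPM on a log axis for the 12 genes highest and the 12 lowest in magnesium, in all 8 libraries; diamonds are the 2 libraries compared, triangles week 4 and circles the other libraries of week 12. CGRP at week 12 (blue circles) is the next highest library for 11 of the 12 highest genes, and Col11a1 in magnesium (224 CPM) lies below every other library.

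The place of these genes among the 8 libraries differed between the higher and the lower set. Of the 248 genes at least 2-fold higher in magnesium, magnesium alone lay outside the range of the other 6 libraries for 111 (44.8%), zoledronate alone for 43 (17.3%), both for 74 (29.8%) and neither for 20 (8.06%). Of the 141 lower genes, magnesium alone lay outside for 41 (29.1%), zoledronate alone for 44 (31.2%), both for 29 (20.6%) and neither for 27 (19.1%). Counted with or without the other, magnesium lay outside for 185 of the higher genes (74.6%), 70 of the lower genes (49.6%) and 35.5% of all 7142 measured genes. Counted the same way, zoledronate lay outside for 117 of the higher genes (47.2%), 73 of the lower genes (51.8%) and 48.7% of all measured genes, so its shares in both sets were near that over all genes. Among the other 6 libraries, CGRP at week 12 had the highest level for 132 of the 248 higher genes (53.2%), against 13.6% of all measured genes. It had the lowest level for 60 of the 141 lower genes (42.6%), against 32.3% of all measured genes.

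The differences were in how many cells had a transcript as well as in its amount. Each cell was thinned to 5000 UMIs, so that depth was equal and no member was lost. In thinned cells, Hsd11b1 was found in 4.95% of zoledronate cells (4.51 to 5.41) and 51.2% of magnesium cells (50.1 to 52.3). Grem1 was found in 42.0% and 88.7%, with 2.65 UMIs in each zoledronate cell that had it and 6.35 in each such magnesium cell. Without thinning, Hsd11b1 was found in 12.0% of zoledronate cells and 81.0% of magnesium cells. In the other direction, Col11a1 was found in 98.6% of thinned zoledronate cells and 52.0% of magnesium cells, and Lum in 40.1% and 3.79%. No class of cells that should lack these genes could be set apart, so the share that free RNA alone gives was not measured.

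**Figure D3:**
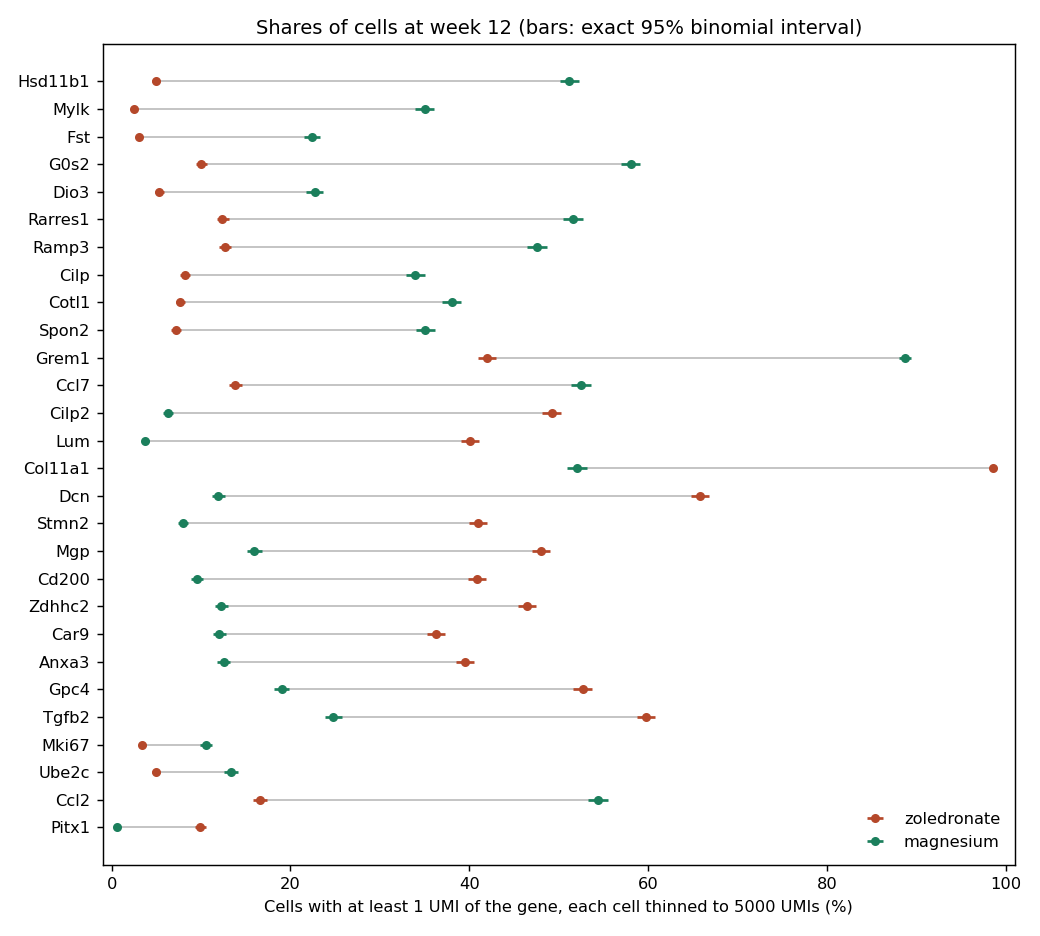
Percent of cells with at least 1 UMI of a gene after thinning each cell to 5000 UMIs, in zoledronate (red) and magnesium (green) at week 12; bars are exact 95% binomial intervals and cover counting error only. Hsd11b1 goes from 4.95% to 51.2% and Lum from 40.1% to 3.79%, and Mki67 and Pitx1 stay at or below 10.5% in both.

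Some genes were spread over the cells and others were held by few. The 5% of thinned magnesium cells with most Grem1 held 22.9% of its UMIs, and those with most Hsd11b1 held 27.1%. For Fst the top 5% held 57.0%, although 22.4% of cells had a UMI of it. In zoledronate, the top 5% held 12.4% of Col11a1 UMIs and 60.3% of Mgp UMIs, and a single thinned cell had up to 349 of Mgp. Pairs of genes were looked at within a library after their levels had been seen. Of magnesium cells with Ccl2, 72.0% (70.6 to 73.3) had Ccl7, against 29.3% (27.8 to 30.8) of cells without Ccl2. Hsd11b1 and Mylk were less close, with Mylk in 33.1% of cells that had Hsd11b1 and 37.1% of cells that did not. In zoledronate, Lum was found in 47.9% of cells with Dcn and 25.03% of cells without, and Mki67 in 2.31% and 5.64% of the same classes.

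Genes of cell division were higher in the magnesium library. Of 20 measured members of the G2/M and mitosis list, 19 were at least 1.5-fold higher and 0 lower, with a median log2 ratio of 1.25. Mki67, a protein of dividing cells, stood at 15.5 CPM (14.9 to 16.1) in zoledronate and 43.3 CPM (42.2 to 44.3) in magnesium. Cdk1, the kinase that drives entry into mitosis, was the exception, with 14.1 and 20.6 CPM. In the other 6 libraries Mki67 ran from 46.2 to 150 CPM, so both libraries lay below them, zoledronate the farther. The same order held for the mitotic cyclin Ccnb1 (12.4, 35.3 and 39.2 to 135 CPM) and the kinetochore gene Cenpf (20.5, 57.5 and 60.5 to 221 CPM), given as zoledronate, magnesium and the range of the other 6. Ube2c, which helps to degrade mitotic cyclins, stood at 35.1 CPM in zoledronate and 102.0 CPM in magnesium, and the lowest of the other libraries had 101.8 CPM.

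The members of this list share motifs in their promoters, and 3 promoters are shown because 19 of the 20 measured genes lay past the fold on the same side. The CCAAT box is bound by the factor NF-Y, and the cell cycle homology region, searched here as TTTGAA or TTTAAA, is known from promoters of mitotic genes. Both strands of each promoter were searched, from 250 bases before to 50 after the start, and matches may overlap. RefSeq promoters on the GRCr8 build were found for 17 of the 20 measured members. TTTGAA or TTTAAA occurred in 17 of 17 (100%), against 17.9% of 5728 promoters of measured genes and 27.9% of 27457 in the table. CCAAT occurred in 14 of 17 (82.4%), against 38.7% of measured genes and 37.7% of the table. The same 82.4% had both kinds of match, against 7.35% of measured genes. The 200 bases before the start of Kif20b (mitotic kinesin; chr1:241840816-241841015, plus strand), Cenpf (chr13:103760887-103761086, minus strand) and Ccnb1 (chr2:33655226-33655425, minus strand) are printed 5′ to 3′ with the matches in capitals. They belong to the 4 members furthest from a ratio of 0, of which the table lacks Ube2c.
Kif20b: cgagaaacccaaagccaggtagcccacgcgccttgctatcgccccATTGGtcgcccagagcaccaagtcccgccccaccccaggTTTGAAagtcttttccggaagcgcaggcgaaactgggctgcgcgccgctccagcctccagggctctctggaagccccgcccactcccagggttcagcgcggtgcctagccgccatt
Cenpf: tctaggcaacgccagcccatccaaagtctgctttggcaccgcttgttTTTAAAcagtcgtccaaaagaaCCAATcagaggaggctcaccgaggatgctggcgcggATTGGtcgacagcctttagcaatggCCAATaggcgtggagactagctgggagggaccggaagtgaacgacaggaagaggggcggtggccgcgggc
Ccnb1: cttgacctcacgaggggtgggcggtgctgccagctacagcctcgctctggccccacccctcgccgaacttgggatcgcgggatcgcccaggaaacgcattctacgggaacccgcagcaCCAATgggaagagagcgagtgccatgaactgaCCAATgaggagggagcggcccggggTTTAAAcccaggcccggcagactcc
Kif20b has 1 CCAAT match, 155 bases before the start and read on the other strand as ATTGG, and TTTGAA at 116 bases. Cenpf has 3 CCAAT matches, the first at 131 bases, and TTTAAA at 153 bases. Ccnb1 has 2, the first at 82 bases, with TTTAAA at 25 bases. A match describes these letters and does not show that a factor binds there.

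The share of cells with mitotic transcripts was higher in magnesium as well. In thinned cells, at least 5 UMIs of the G2/M list were found in 4.59% of zoledronate cells (4.17 to 5.04) and 13.0% of magnesium cells (12.3 to 13.8). At least 10 UMIs were found in 3.14% and 8.86%. Genes of DNA replication followed at a smaller size, with 9 of 17 measured members of the S phase list at least 1.5-fold higher, 0 lower and a median of 0.61. Rrm2, a subunit of the enzyme that makes deoxynucleotides, was at 33.7 and 82.7 CPM, and the replication clamp gene Pcna at 54.9 and 64.5 CPM. Of 22 G1 cyclin, inhibitor and p53 target genes, 3 were higher and 3 lower. Ccnd1 (cyclin D1) was higher, at 39.7 and 109.7 CPM, and Ccnd2 was lower, at 7.94 and 2.29 CPM. The other 6 libraries spanned 66.8 to 258 CPM for Ccnd1, with zoledronate below and magnesium inside. For Ccnd2 they spanned 5.97 to 17.4 CPM, with zoledronate inside and magnesium below. The damage-response genes Gadd45b (-1.21) and Gadd45g (-0.96) were also lower. With cells restricted to those with 0 UMIs of the G2/M list, 314 of the 389 genes at least 2-fold apart stayed so in the same direction. The S phase median was then 0.10. The list's own 17 members at least 2-fold higher have 0 UMIs in such cells by this choice, so they could not stay apart. The restriction used counts before thinning and kept 62.7% of zoledronate cells and 41.5% of magnesium cells.

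Matrix genes went in both directions within families. Of 7 measured small leucine-rich proteoglycans, 2 were at least 1.5-fold higher and 3 lower, with a median of -0.51. Lum, Dcn and Ogn (-1.45) were lower and Aspn (asporin, 1.597) was higher, while the abundant Bgn (biglycan) was at 2106 and 2539 CPM. Of 11 fibrillar and associated collagens, 2 were higher and 2 lower. Col14a1, which sits on the surface of fibrils, stood at 36.1 CPM in zoledronate and 155 CPM in magnesium, and Col8a1 at 313 and 118 CPM. The chief collagens of bone and fibrous tissue differed little, Col1a1 at 22060 and 18094 CPM, Col1a2 at 10622 and 10129 CPM and Col3a1 at 8416 and 7051 CPM. Among 22 matricellular genes, 6 were higher and 6 lower. Cilp (19.2 and 127 CPM), Tgfbi (8.98 and 64.8 CPM) and Cthrc1 (14.3 and 52.2 CPM) were among the higher, and Cilp2 was the lowest. Fn1 (fibronectin, -0.35) and Postn (periostin, -0.28) lay within 1.5-fold.

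Hyaluronan and versican genes stood higher, with 4 of 7 measured members at least 1.5-fold higher, 0 lower and a median of 1.25. Has2, which makes hyaluronan, was at 18.2 and 48.9 CPM, the large proteoglycan Vcan at 112 and 321 CPM, and Ptx3, which crosslinks hyaluronan, at 2.64 and 20.1 CPM. Hmmr, the remaining higher member, also belongs to the G2/M list, and its ratio is the list median. Tnfaip6 (0.43), Cd44 (-0.17) and Hyal2 (-0.18) lay within 1.5-fold. Enzymes that process collagen were near level (1 higher and 0 lower of 19, median 0.10), and P4ha2, a prolyl hydroxylase, was that 1 gene (0.82). Elastic fibre genes had 1 higher (Efemp2, 0.77) and 1 lower (Fbln5, -0.65) of 10. Basement membrane genes had 3 higher of 9, led by Lama4, a laminin chain at 74.5 and 190 CPM. Integrins and focal adhesion genes had 2 higher and 2 lower of 19. The fibronectin receptor chain Itga5 was higher (1.11) and Itgbl1 was lower, at 82.8 and 11.5 CPM, below its range of 43.3 to 83.5 CPM in the other libraries.

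Most measured genes of the cartilage list and of the osteogenic and mineralisation list were lower in magnesium. At least 1.5-fold lower were 7 of the 13, against 4.48% of all measured genes. Of 4 measured cartilage genes, 3 were at least 1.5-fold lower in magnesium and 0 higher, with a median of -1.12. Sox9, the factor that specifies cartilage, was at 106 and 55.6 CPM, and the matrix protein Comp at 20.2 and 7.53 CPM. The other 6 libraries spanned 53.6 to 92.1 CPM for Sox9 and 3.31 to 57.8 CPM for Comp. Magnesium lay inside both ranges, and zoledronate lay above that of Sox9. Acan (aggrecan) was at 15.2 and 17.5 CPM. Members with a mean under 5 CPM went both ways. The link protein gene Hapln1 was at 6.48 and 0.06 CPM, and Prg4 (lubricin, of the joint surface) at 0.20 and 2.84 CPM. All 9 measured genes of the osteogenic and mineralisation list lay below a ratio of 0, 4 of them at least 1.5-fold, with a median of -0.57. This list also holds genes that act against mineralisation, among them Mgp and Enpp1, so it does not measure bone formation. Alpl, the phosphatase of mineralising cells, was at 16.4 and 6.07 CPM, and Enpp1, which makes the mineral inhibitor pyrophosphate, at 130 and 64.6 CPM. Both libraries lay inside the range of the other 6 for Alpl (4.32 to 33.9 CPM) and Enpp1 (61.5 to 145 CPM). Mgp was at 536 and 94.7 CPM, and magnesium lay below its range of 112 to 702 CPM in the other 6 libraries. The transcription factor Dlx5 (-0.85) was lower as well, while Runx2 was at 18.8 and 15.0 CPM. Spp1 (osteopontin) was at 368 and 248 CPM. Below the minimum, the transcription factor genes Msx2 (1.45 and 8.49 CPM) and Dlx3 (0.12 and 1.80 CPM) and the parathyroid hormone receptor gene Pth1r (0.81 and 3.16 CPM) were higher in magnesium.

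Secreted antagonists led the growth factor genes. Among 16 measured genes of the bone morphogenetic protein (BMP) pathway, 9 were at least 1.5-fold higher and 1 lower, with a median of 0.73. The antagonists Grem1, Fst, Nog (noggin, 5.62 and 26.0 CPM) and Bmper (5.44 and 17.1 CPM) were higher, and Chrd (chordin, also an antagonist) was the lower gene (-1.10). The Id genes, which BMP signals switch on, were higher too at a smaller size, with Id1 at 189 and 323 CPM and Id2 at 11.6 and 19.4 CPM, and Id3 at 1148 and 1660.2 CPM was within 1.5-fold. The ligand Bmp4 was below the minimum, at 2.05 and 0.06 CPM. Of 13 genes of transforming growth factor beta and activin, 1 was higher and 2 lower, with a median of -0.10. The ligand Tgfb2 was at 226 and 66.1 CPM, and Pmepa1, a target and brake of the pathway, at 833 and 343 CPM.

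Of 17 WNT genes, 6 were higher and 6 lower, and the extremes were far apart. The ligand Wnt16 stood at 33.6 CPM in zoledronate and 1.72 CPM in magnesium, and its range of 2.47 to 26.4 CPM in the other 6 libraries lay between them. Wnt4 was at 2.54 and 36.3 CPM, against 5.98 to 14.0 CPM, and Wnt5a at 18.3 and 55.1 CPM. The secreted inhibitor Sfrp1 was at 1.64 and 32.6 CPM, and among the other 6 libraries CGRP at week 12 had 26.7 CPM and the rest at most 0.57 CPM. The receptor Fzd4 was at 4.26 and 15.6 CPM. The WNT median was 0.37, but -0.75 for members with a mean of at least 50 CPM, so it gives no single direction. Of 16 FGF, PDGF, HGF and EGF genes, 4 were higher and 2 lower. Fgf7 was at 1.91 and 14.3 CPM and Nrg1 at 32.9 and 12.2 CPM. Of 10 insulin-like growth factor genes, Igfbp3, a binding protein, was higher at 721 and 1478.5 CPM, and Irs2 lower (-0.69).

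Several chemokine genes, and most measured stromal genes that act on osteoclasts, were higher in magnesium. Of 14 measured chemokine and cytokine genes, 7 were at least 1.5-fold higher, 6 within that fold and 1 lower, with a median of 0.69. In all, 11 lay above a ratio of 0 and 3 below. Over all measured genes, 7.63% were at least 1.5-fold higher and 4.48% lower. Ccl2, which draws monocytes, stood at 211 CPM (209 to 214) in zoledronate and 830 CPM (825 to 834) in magnesium, and Ccl7 at 135 and 688 CPM. In the other libraries Ccl2 ran from 8.89 to 215 CPM and Ccl7 from 3.33 to 230 CPM, CGRP at week 12 having the most. Il1rn, the interleukin 1 receptor antagonist, was at 0.88 and 21.0 CPM. The scavenger receptor Ackr3 was the lower member, at 18.0 and 6.56 CPM. Of 8 measured stromal regulators of osteoclasts, 6 were higher and 0 lower, with a median of 0.98. Of its measured members, Ccl2, Csf1, Cxcl12 and Il11 (-0.40) are also in the chemokine list. Csf1, which osteoclast precursors need to survive, was at 27.2 and 129 CPM. Its range elsewhere was 34.3 to 94.0 CPM, so zoledronate lay below it and magnesium above. Cxcl12, a chemokine of the marrow niche, was at 44.7 and 97.1 CPM. Tnfrsf11b (osteoprotegerin, the decoy of the osteoclast signal RANKL) was nearly level, at 48.2 and 49.4 CPM, and Tnfsf11, which codes for RANKL itself, was not listed in either table.

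Most genes of matrix breakdown lay within 1.5-fold, but a smaller part of them did than of all measured genes (87.9%). Of 19 measured proteases and inhibitors, 5 were at least 1.5-fold higher, 1 lower and 13 within that fold, with a median of 0.23. The gelatinase Mmp2 was at 247 and 529.5 CPM, Mmp23 at 62.2 and 168 CPM and the lysosomal protease Ctsl at 1592 and 3019 CPM. Timp3, an inhibitor of metalloproteases held in the matrix, was the lower gene, at 45.8 CPM in zoledronate and 1.58 CPM in magnesium, and the other 6 libraries lay between, from 6.04 to 22.1 CPM. Plasminogen activation genes had 1 higher (Plat, 0.89) and 1 lower (S100a10, 2443 and 1202 CPM) of 9. Of 15 lysosomal and bone-resorbing genes, 1 was higher and 1 lower. Ctsk (cathepsin K) was at 124 and 137 CPM, and Acp5 (tartrate-resistant phosphatase) at 16.9 and 21.5 CPM.

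Contractile genes were level or higher in magnesium by the fold used. Of 20 measured members, 5 were at least 1.5-fold higher and 0 lower, with a median of 0.33. Mylk stood far above the rest, followed by Myh11, smooth-muscle myosin (29.2 and 66.9 CPM), Tagln2 (693 and 1335 CPM) Cryab, a small heat shock chaperone (185 and 349.5 CPM), and the actin-binding Cnn1 (508 and 802 CPM). The abundant filament genes Acta2 (4207 and 3562 CPM) and Tagln (13472 and 9431 CPM) were lower, within 1.5-fold, as was Actg2 (-0.51). In all, 12 members lay above a ratio of 0 and 8 below, and the summed level of the list was 35602 CPM in zoledronate and 31600 CPM in magnesium. Of 11 genes of glucocorticoid activation and response, 4 were higher and 1 lower, with a median of 0.49. Besides Hsd11b1 the higher genes included Mt2A, a metallothionein (23.7 and 105 CPM), and the chaperone gene Fkbp5 (8.87 and 17.5 CPM). The other 6 libraries spanned 45.1 to 98.5 CPM for Mt2A, between the 2 values. For Fkbp5 they spanned 14.7 to 19.3 CPM, with zoledronate below and magnesium inside. The lower gene was Tsc22d3 (-0.69), and Sgk1 (0.27) and Dusp1 (0.02) lay within 1.5-fold. In all, 10 of the 11 lay above a ratio of 0 and 1 below. Antioxidant genes had 8 higher and 0 lower of 28, with a median of 0.17. Gpx3, a secreted glutathione peroxidase, was at 327 and 1164.5 CPM, and Mt1 at 55.0 and 186 CPM.

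The lists tied to the treatments themselves had few members past the fold. Of 14 measured magnesium channels and transporters, 1 was at least 1.5-fold higher and 0 lower, with a median of -0.00. The higher gene was Slc41a3, at 11.5 and 18.95 CPM. Its range in the other 6 libraries was 14.5 to 19.5 CPM, so magnesium lay inside it and zoledronate below. Nipal2, a transporter with a mean under 5 CPM, was at 1.08 and 4.40 CPM. Trpm7 was at 50.9 and 46.2 CPM. Cnnm2 was at 19.3 and 12.9 CPM, both above the 1.86 to 11.6 CPM of the other libraries. Of 22 genes of the mevalonate pathway, which zoledronate blocks, 1 was higher (Hsd17b7, 0.65) and 0 lower, and 20 of 22 lay above 0 with a median of 0.32, against 0.07 for all genes. Fdps, the drug's target enzyme, was at 276 and 339.6 CPM, and both values were below the 365 to 474 CPM of the other 6 libraries. Prenylation genes and the small GTPases had 0 higher and 2 lower of 22, namely Rnd3 (285 and 138 CPM) and Rhob (168 and 100.9 CPM).

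Signalling and stress lists differed in how evenly their members leaned. Of 6 measured genes for CGRP, adrenomedullin and their receptors, 2 were higher and 2 lower. Ramp3 was at 29.1 and 191 CPM and the peptide Adm at 1.53 and 8.52 CPM, while Calcrl, the receptor that Ramp3 accompanies, was at 0.14 and 0.54 CPM. Of 14 cyclic AMP genes, 4 were higher and 0 lower, with 14 of 14 above a ratio of 0 and a median of 0.43. The phosphodiesterases Pde4b (4.45 and 16.5 CPM) and Pde10a (4.05 and 12.5 CPM) were among them. Immediate early genes had 6 higher and 0 lower of 20, with a median of 0.09, and Fos was at 45.4 and 103.6 CPM and Fosl1 at 5.40 and 19.2 CPM. For Fos the other 6 libraries spanned 71.2 to 158 CPM, with zoledronate below and magnesium inside. For Fosl1 both libraries lay inside the 3.81 to 19.7 CPM of the other 6. Hypoxia genes had 4 higher and 1 lower of 17, with Hif1a at 139 and 229.96 CPM and Vegfa at 297 and 204.5 CPM. Glycolysis genes had 4 higher and 0 lower of 17, with 15 above 0, a median of 0.34 and Ldha at 1162 and 1824 CPM. Angiogenic factors had 3 higher and 3 lower of 13, among the lower the guidance genes Slit2 (-1.15) and Sema3e (-1.13). Of 21 surface and factor markers of skeletal stem and mesenchymal cells, 8 were higher and 3 lower. Tnmd (tenomodulin, a tendon gene) was at 5.77 and 55.3 CPM, and Scx, a factor of tendon cells, went the other way, at 745 and 399 CPM.

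Large housekeeping complexes were nearly level. Of 79 cytosolic ribosomal protein genes, 1 was at least 1.5-fold higher and 2 lower, with a median of -0.01, and the 2 lower were Rpl39l (148 and 60.6 CPM) and Rpl37a (3098 and 1587 CPM). Genes of oxidative phosphorylation had 2 higher (Cox4i2 and Sdha) and 2 lower (Cox6a2 and Uqcr10) of 76. Proteasome subunits and translation factors had 0 in either direction, of 34 and 59. Unfolded protein response genes had 0 higher and 3 lower of 28 (Chac1, Dnajb9 and Ddit3), and heat shock genes 6 higher and 1 lower of 16. Among 6 interferon genes, 2 were higher, Ifitm3 at 124 and 542 CPM and Lgals3bp at 12.0 and 35.7 CPM. The 2 measured X-linked genes of the sex-linked list were level (Ddx3x at -0.03 and Eif2s3 at 0.14), and Xist and the Y-linked genes of that list were not listed in either table.

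**Figure D4:**
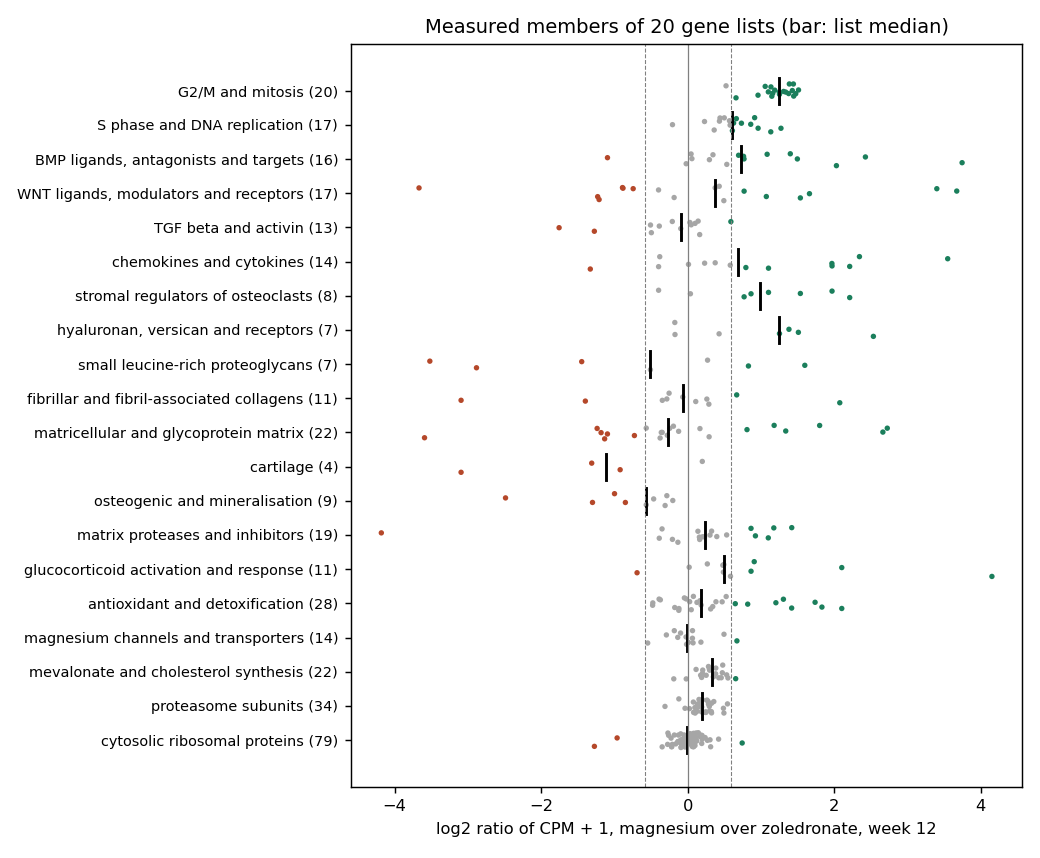
Log2 ratios of magnesium over zoledronate at week 12 for the measured members of 20 gene lists, with the number of members in brackets; each point is a gene, black bars are list medians and dashed lines a fold of 1.5. Mitotic genes lie together around 1.25, BMP and WNT genes spread from below -1 to above 3, and ribosomal protein genes sit around -0.01.

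Limb position genes lay within 1.5-fold apart from 3 members. Of 11 measured limb position genes, 0 were higher and 3 lower, where 4.48% of all measured genes were lower. Pitx1, which specifies hindlimb identity, stood at 22.01 CPM in zoledronate and 1.18 CPM in magnesium, and the other 6 libraries all had between 21.7 and 52.3 CPM. It was found in 9.91% of thinned zoledronate cells and 0.55% of magnesium cells. Hoxd13 (8.91 and 1.99 CPM) and Hoxd9 (12.2 and 5.17 CPM) were lower, whereas Hoxc10 was at 70.6 and 63.6 CPM and Hoxc8 at 35.8 and 46.8 CPM. The other 6 libraries spanned 2.14 to 5.47 CPM for Hoxd13, with zoledronate above and magnesium just below. For Hoxd9 they spanned 4.04 to 14.8 CPM, and both libraries lay inside. Tenm3, named after its values were seen, was at 15.1 CPM in zoledronate and not listed for magnesium, and the other 6 libraries had 26.0 to 74.1 CPM.

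The genes RT1-A1 and RT1-A2 code for class I molecules of the rat major histocompatibility complex. RT1-A1 stood at 0.97 CPM in zoledronate and 39.3 CPM in magnesium, and RT1-A2 at 66.4 and 0.91 CPM. RT1-A1 thus made up 1.44% of the UMIs of the pair in zoledronate and 97.7% in magnesium. In the other libraries that share was 8.10% (magnesium, week 4), 34.7% (CGRP, week 4), 45.2% (CGRP, week 12), 52.6% (control, week 4), 73.8% (control, week 12) and 73.8% (zoledronate, week 4). The 2 libraries compared were therefore the extremes of the 8. These genes are near copies within a variable family, and how the authors' counting divides reads between copies was not stated, so each gene's own level is uncertain. B2m, the chain that all class I molecules share, was level at 1253 and 1184.5 CPM. Of 7 measured antigen presentation genes, 1 was higher and 1 lower, which are these 2. Tapbp, a class I chaperone coded near them, was at 1.15 and 6.75 CPM, and Rps4y2 at 8.48 and 79.5 CPM. Both were named after their values were seen, and Rps4y2 resembles other ribosomal protein genes, so its reads may be shared with them. Whether the animals' genotypes differed was not tested.

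Marker lists of other cell types differed in level and in direction. Summed pericyte and smooth-muscle markers, which Acta2 dominates, were at 4771 and 4451 CPM, skeletal muscle markers at 116 and 156 CPM and chondrocyte markers at 149 and 81.3 CPM. Osteoclast markers were at 147 and 164 CPM. Ctsk dominates that sum, so it does not count osteoclasts. Schwann and glia markers were at 12.0 and 40.8 CPM, and T and NK cell markers at 13.1 and 3.31 CPM. Of the 10 T and NK cell markers, 4 were listed in either table and 1 reached 1 CPM in each library. That sum therefore does not count T or NK cells. The summed level of adipocyte markers was 2.03 CPM in zoledronate and 26.4 CPM in magnesium, with 6 of the 8 markers listed in either table and 6 higher in magnesium, against 3.09 to 7.12 CPM in the other 6 libraries. Of 7999 thinned magnesium cells, 3 had at least 4 of the markers, and 0 of 9278 zoledronate cells did (exact 95% upper limit 0.0398%). These 3 cells held 95.5% of the magnesium UMIs of Adipoq, 88.7% of those of Fabp4 and 67.1% of those of Cfd, which codes for adipsin. They held 2.72% of the Lpl UMIs and 3.02% of those of Pparg, the regulator of fat cell formation. Without them the summed level was 13.8 CPM. Pparg stood at 0.97 CPM in zoledronate and 4.56 CPM in magnesium, and Lpl, a lipase, at 0.48 and 5.98 CPM. At least 1 adipocyte marker was found in 1.19% of thinned zoledronate cells and 6.10% of magnesium cells.

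The macrophage list was higher in zoledronate, at 24.1 CPM against 13.2 CPM, and 1 of its 8 listed markers was higher in magnesium. Cd14 made up most of it, at 15.2 and 11.4 CPM. The defining gene Ptprc was at 0.06 CPM in zoledronate and not listed for magnesium, and Csf1r was at 0.22 and 0.53 CPM. Lyz2 was at 5.76 and 0.08 CPM, and the 0.19% of thinned zoledronate cells that had it carried 19.4 UMIs each. B cell markers were not listed in either table. Summed endothelial markers were at 40.2 and 52.1 CPM. The part of these cells in the chemokine and lipid gene values was not tested.

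At week 4, libraries of the same 2 treatments were much closer to each other. The log2 ratios of the same 7142 genes had an SD of 0.16 there, against 0.50 at week 12. At week 4, 11 genes were at least 2-fold higher in magnesium and 12 at least 2-fold lower. Of the 248 genes at least 2-fold higher at week 12, the week 4 ratio was at least 1.5-fold higher for 8 (3.23%) and lower for 21 (8.47%). Of the 141 lower genes, that ratio was at least 1.5-fold lower for 10 (7.09%) and higher for 11 (7.80%). Over all 7142 genes it was higher for 38 (0.532%) and lower for 42 (0.588%). The G2/M median was 0.12 at week 4 and 1.25 at week 12, and that of BMP genes 0.08 and 0.73. For immediate early genes the week 4 median was 0.40, against 0.09 at week 12. Its members Fos (1.08 at week 4 and 1.17 at week 12) and Nr4a1 (1.13 and 1.22) were at least 1.5-fold higher in magnesium at both weeks. Hsd11b1 stood at 10.1 CPM in zoledronate and 10.2 CPM in magnesium at week 4, a ratio of 0.02, and Grem1 at 116 and 123 CPM. Libraries of the 2 weeks come from separate cells, and each week has 1 library a side, so the difference between the weeks was not tested.

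**Figure D5:**
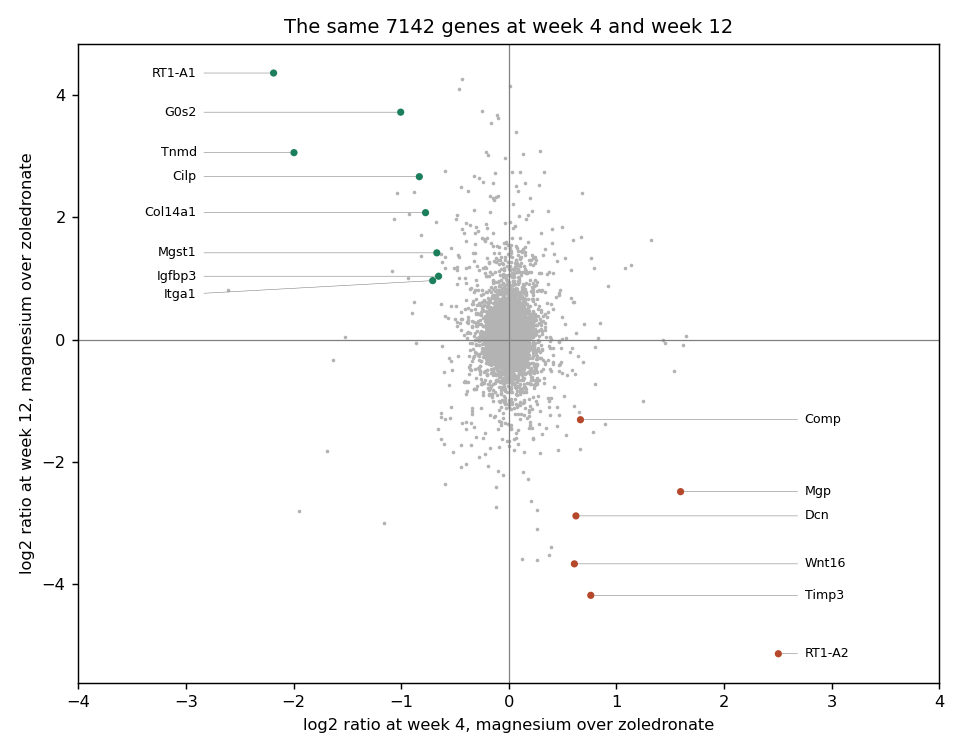
Log2 ratios of magnesium over zoledronate at week 4 (horizontal) and week 12 (vertical) for the same 7142 genes. The cloud is narrow at week 4 (SD 0.16) and tall at week 12 (SD 0.50), and the 14 labelled genes are at least 1.5-fold apart in opposite directions at the 2 weeks, RT1-A1 and RT1-A2 the farthest.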

How the data were processed

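The 8 libraries were made with 10x V3 chemistry from callus cells, 1 library for each treatment and week, with 10000 cells used for each per the labels' protocols. The authors deposited 1 table of UMI counts per library, with genes in rows by symbol and cells in columns. Per the submitters' processing notes the reads were aligned with STAR to the Rnor_6.0 build, and no further settings were stated. Every listed gene had UMIs in at least 5 cells, every cell at least 500 genes, and 0 mitochondrial genes were listed, so the tables had been filtered. Counts of the member cells were summed per gene and library (155953161 UMIs for zoledronate and 159685281 for magnesium at week 12) and divided by the sum to give CPM. Genes needed to be in both tables with a mean of at least 5 CPM, and 1 CPM was added before log2. Intervals on sums are exact Poisson and on shares exact Clopper-Pearson intervals (95%), for counting error only. No doublet caller was run and doublets were treated as present. Python 3.11.15 with numpy 2.4.6, pandas 2.3.3 and scipy 1.17.1 was used, and edgeR 4.0.16 for TMM scaling. The scripts were tested on simulated data.

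The text names the 12 highest and 12 lowest genes with a mean of at least 50 CPM, the 4 highest and 4 lowest at 5 to 50 CPM, and up to 4 members per list furthest from 0, with well-known members and markers beside them. Not every gene the rule gives is described, and 1 is not reported here. The 46 gene lists, 15 marker classes and the members were chosen with earlier results of these data known. Chosen after values were seen were the pairs of genes, the UMI steps for the G2/M list, the promoter search, the adipocyte cells, the RT1 shares, the comparison of each gene with the other 6 libraries, and the genes said so in the text. Each count was recomputed under 12 other settings, which changed the scaling (TMM, median of ratios, mean of per-cell CPM), the mean CPM (1 and 50), the pseudocount (0.1), the cells (every barcode, at least 10000 UMIs, 10000 to 20000 UMIs, without the 5% with most UMIs, with 0 G2/M UMIs) and the depth per cell (5000 UMIs).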

Additional observations from a re-analysis of the deposited data

Results flagged for a closer look

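Each of the following 14 of 215 named measured genes was at least 1.5-fold apart in one direction at week 4 and at least 1.5-fold apart in the opposite direction at week 12. With 1 library per treatment and week, the difference between the weeks was not tested, and the rule was set after values had been seen. Of these genes, 8 were higher and 6 lower in magnesium at week 12. Values are log2 ratios of magnesium over zoledronate.

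The matrix genes were split. Dcn had 0.62 at week 4 and -2.88 at week 12, Mgp 1.596 and -2.49, and the cartilage gene Comp 0.67 and -1.31. Col14a1 had -0.77 and 2.07, and Cilp -0.83 and 2.66. The metalloprotease inhibitor Timp3 had 0.76 at week 4 and -4.18 at week 12. For Dcn, Mgp and Timp3, magnesium at week 4 had the highest level of the 6 libraries outside the comparison.

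Among secreted factors and receptors, the ligand Wnt16 had 0.61 and -3.67, the binding protein Igfbp3 -0.65 and 1.035, and the collagen receptor chain Itga1 -0.71 and 0.96. The detoxifying enzyme gene Mgst1 had -0.67 and 1.42, the tendon gene Tnmd -1.996 and 3.055, and the lipase inhibitor G0s2 -1.005 and 3.72. G0s2 stood at 14.5 CPM in zoledronate and 6.71 CPM in magnesium at week 4.

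The class I genes had the widest gap between the weeks. RT1-A1 had -2.19 at week 4 and 4.36 at week 12, and RT1-A2 had 2.50 and -5.14. RT1-A2 stood at 10.0 CPM in zoledronate and 61.5 CPM in magnesium at week 4. The part of read sharing between these near copies was not tested.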

How the results depend on the processing

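No paired analysis was possible because each group had 1 library, and no replicate could be left out. The counts of genes followed the minimum level. With a mean of at least 1 CPM, 389 genes were at least 2-fold higher and 212 lower, and 851 were at least 1.5-fold higher. With at least 50 CPM these were 57, 44 and 139, and 110 were at least 1.5-fold lower. The number of genes measured also differs, with 2378 at a mean of at least 50 CPM against 7142 at the main minimum. Counts at different minimums therefore do not share a base, and the part of gene number in these moves was not separated from that of level. The other 41 of 48 alternative counts were within 1.5 times. The 24 most extreme genes with at least 50 CPM stayed at least 2-fold apart in the same direction in all 10 settings run, the smallest being 2.19 for Ccl7 and -1.72 for Tgfb2. TMM lowered all ratios by 0.08 and the median of ratios by 0.09. Of 46 list medians, 11 changed sign under some setting, and all of these lay within 0.37 of 0. They were those of the fibrillar collagens, elastic fibres, transforming growth factor beta, WNT, FGF, immediate early, antigen presentation, magnesium transporter, sex-linked, lysosomal and ribosomal lists. The G2/M median ran from 1.17 to 1.51 over the settings that gave a value. Cells with 0 G2/M UMIs gave none, and the upper end is the ratio of Ube2c alone, at a mean of at least 50 CPM. Over all settings the median ran from 0.10 to 0.75 for S phase, 0.43 to 1.39 for hyaluronan and -1.45 to -0.33 for the small proteoglycans. It ran from -2.01 to -0.92 for cartilage, -0.65 to -0.39 for the osteogenic and mineralisation list and 0.34 to 0.79 for BMP genes. For chemokines it ran from 0.50 to 1.97, for osteoclast regulators from 0.64 to 1.53 and for cyclic AMP genes from 0.11 to 0.48. Of the values recomputed under other settings, 786 of 2150 for named genes, 195 of 551 list medians and 55 of 56 shares moved by more than their counting interval (for a list, the median of its members' intervals). The adipocyte sum of the magnesium library, 26.4 CPM, was 13.8 CPM without 3 cells, a setting chosen after seeing the data. Intervals at this depth cover counting error, and no replicate error could be set beside them.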
